A study of Mus musculus with 2 samples.

Results

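The 6 genes described here are 3 orphan nuclear receptors, Nr4a1, Nr4a2 and Nr4a3, and 3 zinc-finger factors, Egr1, Egr2 and Egr3. They were chosen by name, as early genes of the antigen receptor response, and are 6 of the 32285 genes counted. They were followed in 508 single donor CD4 T cells from the lung: 352 from a wild-type host (C57BL/6, called the WT host) and 156 from a MARCH1-/- host. Barcodes with fewer than 500 UMIs, with fewer than 250 genes, or with more than 10% of UMIs from mitochondrial genes were not counted as cells. A UMI (unique molecular identifier) marks 1 captured transcript molecule.

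The donor animals of both groups were wild type and were sensitized to house dust mite, an airborne allergen, on day 0 and on days 7 to 11. CD4 T cells taken from their lungs on day 14 were dyed with Cell Trace Violet, which is diluted at each division, and moved into hosts that carried or lacked MARCH1, a ubiquitin ligase that takes MHC class II and CD86 off the surface of antigen-presenting cells. The hosts were challenged with house dust mite, and dye-low donor cells were sorted from the lung 4 days later, so both groups hold divided, allergen-exposed, wild-type T cells and differ in the host. The question put by the study is whether MARCH1 in the host acts on an exhaustion-like state of these effector cells. There was 1 library per group, the labels do not give the number of animals behind each, and every host difference below is between 2 libraries, with no replicate check and no test.

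All 6 are protein-coding genes on GRCm38, and none overlaps another annotated gene in GENCODE M21. Nr4a1 (ENSMUSG00000023034) lies at chr15:101254269-101274795 on the plus strand, Nr4a2 (ENSMUSG00000026826) at chr2:57106830-57124003 on the minus strand and Nr4a3 (ENSMUSG00000028341) at chr4:48045153-48086447 on the plus strand. Egr1 (ENSMUSG00000038418) lies at chr18:34859823-34864984, Egr2 (ENSMUSG00000037868) at chr10:67535475-67542188 and Egr3 (ENSMUSG00000033730) at chr14:70077203-70082614, all 3 on the plus strand.

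NR4A and EGR factors are made within a short time of T cell receptor engagement, and their messages decay fast, so their transcripts are used as a sign of a recent antigen signal. The NR4A receptors have no known natural ligand and act mainly through how much of them is made. Nr4a1 follows the strength of the receptor signal, and the NR4A family restrains effector responses, supports regulatory T cells and takes part in T cell exhaustion. Egr1 is switched on through the ERK kinase pathway, while Egr2 and Egr3 depend strongly on calcium and NFAT and limit T cell activation.

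The start-site regions of the 4 members held by the RefSeq promoter table (GRCm38.p6) are shown, 5′ to 3′ on the gene's strand, because the members are grouped by a shared signal response and the letters show which response elements lie there; Egr1 and Egr3 have no entry. The 250 bases before each start were searched on both strands for the CArG box (the serum response factor site), TGACGTCA (the full cyclic AMP response element), TGACG (its core, added after the sequences were seen, which lies inside TGACGTCA), GCGNGGGCG (the EGR site) and AAAGGTCA (the site an NR4A monomer can bind). Capitals mark matches, and CGTCA is TGACG on the other strand. Stretches stop where an annotated exon begins; those of Nr4a1 and Egr2 lie in introns of longer annotated transcripts.
Nr4a1, chr15:101266596-101266845, plus strand: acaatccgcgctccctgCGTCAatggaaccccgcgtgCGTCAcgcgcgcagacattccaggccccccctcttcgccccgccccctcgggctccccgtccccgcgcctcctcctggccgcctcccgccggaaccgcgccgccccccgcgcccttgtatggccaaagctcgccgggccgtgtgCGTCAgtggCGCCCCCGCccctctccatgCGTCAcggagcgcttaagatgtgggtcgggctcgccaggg
Nr4a2, chr2:57124004-57124253, minus strand: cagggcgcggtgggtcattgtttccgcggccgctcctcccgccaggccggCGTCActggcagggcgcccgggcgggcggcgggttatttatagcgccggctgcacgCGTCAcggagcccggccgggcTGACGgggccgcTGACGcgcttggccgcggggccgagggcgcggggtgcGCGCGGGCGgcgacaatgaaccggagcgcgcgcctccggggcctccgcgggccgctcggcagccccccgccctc
Nr4a3, chr4:48045055-48045152, plus strand: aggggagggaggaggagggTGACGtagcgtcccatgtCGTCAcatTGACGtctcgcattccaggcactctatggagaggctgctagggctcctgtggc
Egr2, chr10:67537619-67537868, plus strand, the third of its 5 starts: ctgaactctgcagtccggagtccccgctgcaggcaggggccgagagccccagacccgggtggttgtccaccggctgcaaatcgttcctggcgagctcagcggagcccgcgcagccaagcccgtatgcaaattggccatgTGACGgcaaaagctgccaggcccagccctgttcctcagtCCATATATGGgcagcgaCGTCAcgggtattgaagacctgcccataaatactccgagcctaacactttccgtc

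Each of the 3 Nr4a promoters held the TGACG core 4 times. Of the table's 32851 promoters 17.8% held it at least once, and the share that held it 4 times was not counted. In Nr4a3 the fourth match, at bases -147 to -143, lies beyond the printed stretch. An EGR site letter for letter stood in Nr4a1 at bases -60 to -52 and in Nr4a2 at bases -74 to -66, against 4.70% of all promoters. The CArG box stood in 4 of the 5 Egr2 windows, of which windows 3 to 5 overlap and share 1 box, against 1.47% of all promoters. None of the windows held TGACGTCA or AAAGGTCA, which 1.55% and 1.34% of all promoters held. These are letter matches in short windows and say nothing of binding.

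The sorted cells carried the transcripts of CD4 T cells. All 12 CD4 T cell markers were detected in both libraries, with a summed level of 4747 CPM (UMIs per 1000000 UMIs of the same cells) in the WT-host cells and 6301 in the MARCH1-/- host cells. Macrophage and monocyte markers summed to 2.33 and 6.98 CPM, with Adgre1 and Csf1r at 0 but 4 of 10 markers detected in each library. B cell markers summed to 23.0 and 104, with Ms4a1 at 0 but 4 and 3 of 5 markers detected. A macrophage or monocyte marker had a UMI in 1.70% of WT-host and 6.41% of MARCH1-/- host cells, and a B cell marker in 8.24% and 28.2%. No NK cell or neutrophil marker had a UMI. The part of these other transcripts in the results below was not tested. The WT-host library held 3753437 UMIs, of which 2571048 were in cells, and the MARCH1-/- host library 1934068, of which 1575581 were in cells. Median depth was 6086.5 and 8017 UMIs per cell, so levels are given as CPM, and shares of cells after each cell was thinned to 2000 UMIs. No cell barcode was shared by the 2 libraries, although 16406 of all their barcodes were. Scrublet called 5 doublets in each library, which were kept. Intervals are exact 95% intervals that cover counting error alone and treat each UMI as an independent draw; where a few cells hold many of a gene's UMIs they are too narrow.

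Over all cells, 5 of the 6 members had levels in the 2 libraries that were less than 1.5-fold apart, and Nr4a2 alone was past that line. In the median of 8770 genes with at least 20 UMIs the MARCH1-/- host library was higher by 0.25 on the log2 scale, and 27.2% of these genes were over 1.5-fold higher and 10.1% over 1.5-fold lower, so 1 of 6 members higher and 0 of 6 lower is no excess over the background.

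Nr4a1, the family member whose transcript tracks receptor signal strength, had 226 UMIs in the WT-host cells and 179 in the MARCH1-/- host cells. That was 87.9 CPM (76.8 to 100.1) and 114 (97.6 to 131), a log2 ratio of 0.37 (0.08 to 0.66). Its shift was thus close to that of the median gene. With 1 draw of 2000 UMIs per cell the sign turned, to -0.037.

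Nr4a2, a relative with a closely similar DNA-binding domain, had 49 UMIs in the WT-host cells and 55 in the MARCH1-/- host cells, or 19.1 and 34.9 CPM. The log2 ratio was 0.87 (0.29 to 1.46), the highest of the 6. A single cell held 11 of its 55 MARCH1-/- host UMIs.

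Nr4a3, the third receptor of the family, had a point on the other side, with 64 and 29 UMIs, or 24.9 and 18.4 CPM. Its log2 ratio of -0.44 had an interval (-1.12 to 0.22) that takes in no change. That interval overlaps the 0.08 to 0.66 of Nr4a1, and differences between the relatives were not tested.

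Egr1, the ERK-driven factor, had 277 UMIs in the WT-host cells and 166 in the MARCH1-/- host cells. The levels of 108 (95.4 to 121) and 105 (89.9 to 123) CPM gave a log2 ratio of -0.03 (-0.32 to 0.25). Over all cells Egr1 was thus level between hosts, beside a median gene at 0.25. With the cells split by cycling markers (below), its log2 ratio was 0.21 in cycling and 0.18 in non-cycling cells. These lie close to the median genes of the same cells, at 0.26 and 0.23.

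Egr2 and Egr3, the calcium-dependent members, were scarce. Egr2 had 13 and 8 UMIs (5.06 and 5.08 CPM, log2 ratio 0.01, -1.47 to 1.39) and Egr3 had 27 and 17 (10.5 and 10.8 CPM, log2 ratio 0.04, -0.93 to 0.97). A further relative, Egr4, had 0 UMIs in the cells of both libraries. Differences of 2-fold in Egr2 were not detectable at this depth.

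**Figure D1:**
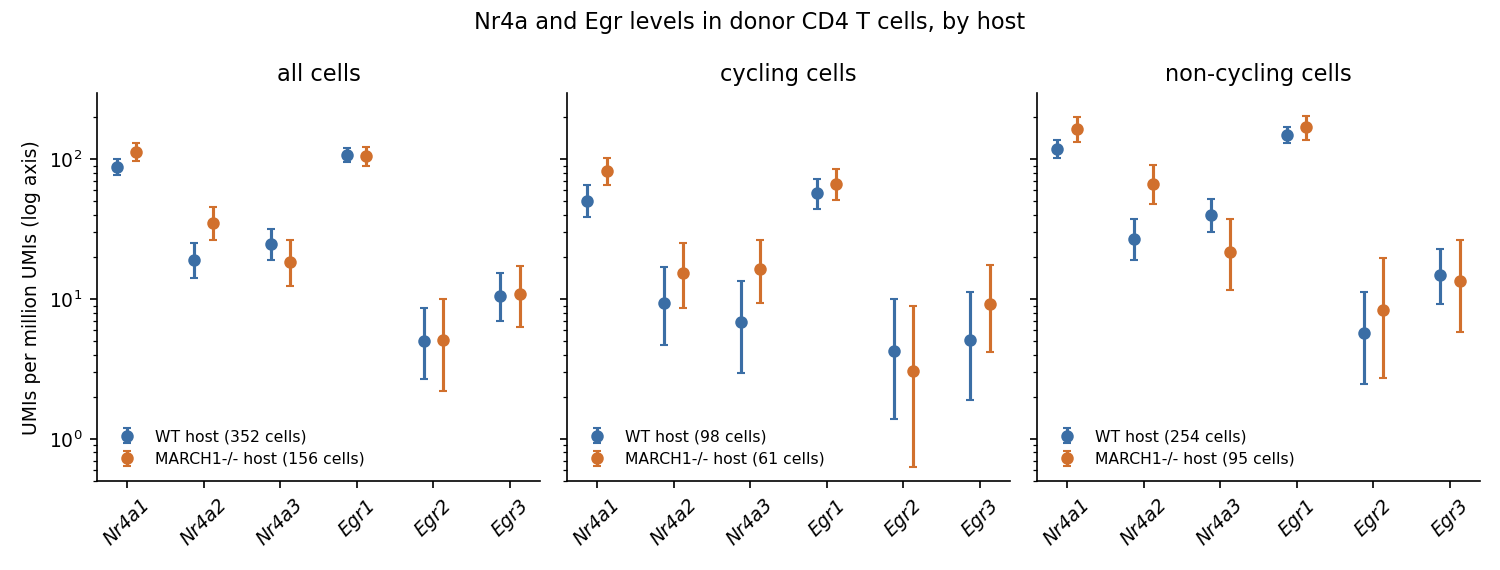
Level of each member (CPM, log axis) in all, cycling and non-cycling cells of the WT host (blue) and the MARCH1-/- host (orange); bars are exact 95% counting intervals of 1 library each. In both libraries the point of every member is lower in cycling than in non-cycling cells, as for Egr1 with 57.3 against 149.7 and 66.4 against 169.

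Most cells held a UMI of some member. In the WT-host library 220 of 352 cells (62.5%) had at least 1 UMI of any member, and in the MARCH1-/- host library 97 of 156 (62.2%). With every cell thinned to 2000 UMIs the shares were 124 of 331 (37.5%) and 48 of 154 (31.2%), with intervals that overlap (32.2% to 42.9% and 24.0% to 39.1%). The thinning left out 21 and 2 shallower cells.

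For Nr4a1 the thinned share was 19.9% of WT-host cells (15.8% to 24.7%) and 15.6% of MARCH1-/- host cells (10.3% to 22.3%), against 35.2% and 42.3% unthinned. The shares expected over all draws, 16.5% and 18.0%, had the opposite order, so neither order is read. Egr1 had thinned shares of 15.7% and 11.0%, Nr4a2 3.93% and 7.14%, Nr4a3 6.34% and 3.90%, Egr2 0.906% and 1.30%, and Egr3 2.72% and 1.30%. Unthinned, Egr1 stood at 31.0% and 27.6%, Nr4a2 at 10.2% and 15.4%, Nr4a3 at 13.1% and 10.9%, Egr2 at 2.56% in both, and Egr3 at 5.11% and 4.49%. Free RNA was small beside this: barcodes of under 100 UMIs held a mean of 4.87 and 2.06 UMIs, and at that amount free RNA would add at most 0.157 UMIs of a member over all the cells of a library. No cell type that should lack the members was present to set a second floor.

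The members differed in how their UMIs lay over cells. Of 109 WT-host cells with Egr1, 65 held 1 UMI, 8 held 2 and 36 held 3 or more; of 43 MARCH1-/- host cells with it, 20 held 1, 7 held 2 and 16 held 3 or more. Nr4a1, by comparison, was at 1, 2, and 3 or more UMIs in 66, 35 and 23 WT-host cells and in 32, 10 and 24 MARCH1-/- host cells. Cells at exactly 2 UMIs were thus fewer for Egr1 than for Nr4a1 in the WT-host library, at 8 of 109 and 35 of 124, while in the MARCH1-/- host library they were 7 of 43 and 10 of 66. The share of a gene's UMIs in its top cell was 5.42% and 24.1% for Egr1 and larger for the scarce Egr2 (30.8% and 37.5%) and Egr3 (18.5% and 47.1%).

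The cells with 3 or more Egr1 UMIs were 10.2% of the WT-host cells (7.27% to 13.9%) and 10.3% of the MARCH1-/- host cells (5.98% to 16.1%). They held 70.8% and 79.5% of all Egr1 UMIs. Their median depth, 6634.5 and 7798.5 UMIs, was not far from that of cells with no Egr1, 5747 and 7561. The cut of 3 was set after these counts were seen, and the 8 and 7 cells at 2 UMIs lie just under it.

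A single cell shaped the Egr1 sum in the MARCH1-/- host library. It held 40 of the 166 UMIs (24.1%), along with 5 of Nr4a1 and 1 of Egr3, and had 36218 UMIs in all, the 12 cycling markers and 6 UMIs of type 2 cytokines; Scrublet did not call it a doublet. Without the top Egr1 cell of each library the host ratio of Egr1 went from -0.03 to -0.32. The top cell of the WT-host library held 15 Egr1 and 8 Nr4a1 UMIs, and 3 of Foxp3, the master factor of regulatory T cells.

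The next MARCH1-/- host cell held 17 Nr4a1, 11 Nr4a2 and 13 Egr1 UMIs out of 10755, the most of Nr4a1 and Nr4a2 in any cell. The 10 cells with the most UMIs of the 6 members held 19.8% of them in the WT-host library and 45.6% in the MARCH1-/- host library. NR4A and EGR transcripts occurred together in 8 and 9 of these 10 cells. At least 4 of the 6 members were found in 10 WT-host and 5 MARCH1-/- host cells.

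**Figure D2:**
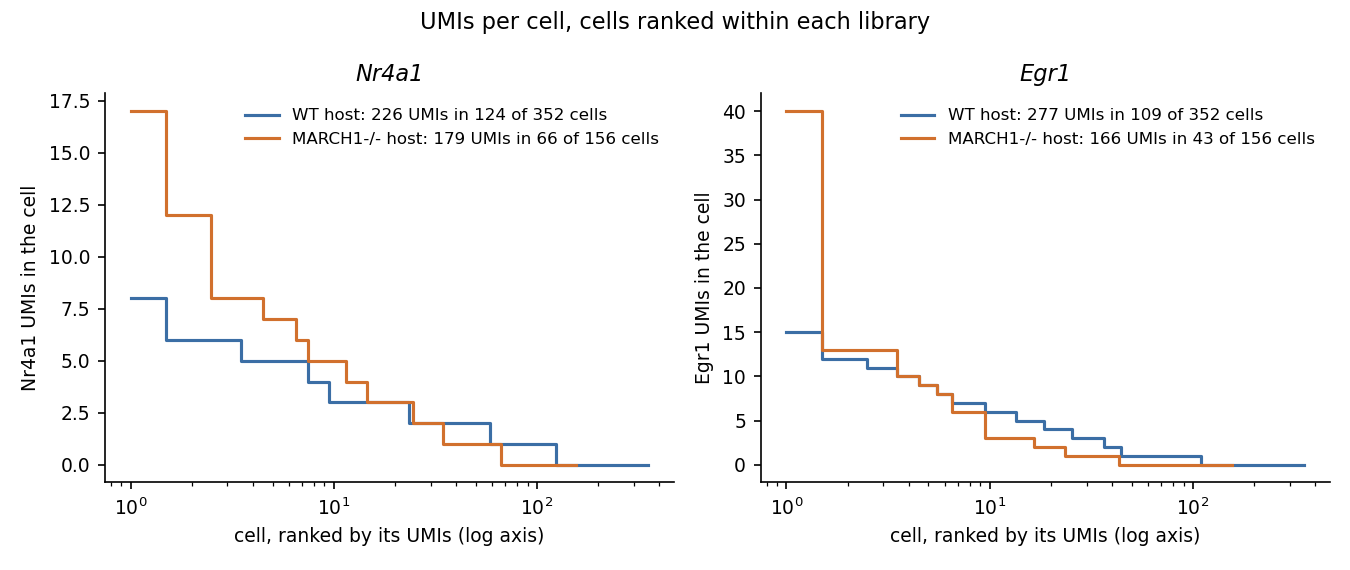
UMIs of Nr4a1 (left) and Egr1 (right) in each cell, with the cells of each library ranked from the most UMIs to the fewest (log axis); blue is the WT host and orange the MARCH1-/- host. The MARCH1-/- host curves begin higher, at 17 for Nr4a1 and 40 for Egr1 against 8 and 15, and reach 0 after 66 and 43 cells against 124 and 109.

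In CPM, the point level of every member was lower in dividing cells than in the other cells of the same library. A cell was called cycling when it had at least 3 of 12 markers of S and G2/M phase, and 98 of the 352 WT-host cells (27.8%, 23.2% to 32.8%) and 61 of the 156 MARCH1-/- host cells (39.1%, 31.4% to 47.2%) were. In all, 46 and 23 cells had 2 or 3 markers and so lay next to the cut or on it, and those with 3 are among the cycling cells. Cycling cells were larger, with medians of 11052.5 and 14470 UMIs against 4867 and 6148 in non-cycling cells, so each comparison is given in CPM and per cell.

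Egr1 was at 57.3 CPM in cycling WT-host cells and 149.7 in non-cycling ones, a log2 ratio of -1.38 (-1.80 to -0.98). In the MARCH1-/- host library the levels were 66.4 and 169, a log2 ratio of -1.35 (-1.82 to -0.89). Without the cell of 40 UMIs, which was cycling, the latter went to -2.50.

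Nr4a1 was at 50.5 and 119 CPM in cycling and non-cycling WT-host cells, a log2 ratio of -1.24 (-1.69 to -0.80). The MARCH1-/- host levels were 82.7 and 164, a log2 ratio of -0.99 (-1.43 to -0.55). Nr4a2 was lower in cycling cells of both libraries as well, at 9.41 against 27.1 and at 15.3 against 67.0 CPM, with log2 ratios of -1.53 (-2.64 to -0.53) and -2.13 (-3.09 to -1.24). These 3 members thus had intervals below 0 in both libraries.

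Nr4a3 had an interval below 0 in the WT-host library alone. It was at 6.85 and 39.9 CPM in cycling and non-cycling WT-host cells, from 8 and 56 UMIs, a log2 ratio of -2.54 (-3.82 to -1.47). In the MARCH1-/- host library it was at 16.3 and 21.8, from 16 and 13 UMIs, a log2 ratio of -0.42 (-1.56 to 0.76). The intervals of the libraries overlap. The 16 cycling UMIs lay in 6 of 61 cells (9.84%), the top ones with 5, 4 and 4, and the 8 of the WT host in 8 of 98 (8.16%). Egr3 had log2 ratios of -1.54 (-3.14 to -0.19) and -0.54 (-2.09 to 1.03), and Egr2 of -0.41 and -1.45 from 5 and 3 cycling UMIs.

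Of the members with at least 20 UMIs, 5 of 5 in WT-host cells and 3 of 4 in MARCH1-/- host cells were over 1.5-fold lower in cycling cells, and 0 were over 1.5-fold higher. Of all such genes, 22.7% and 23.9% were over 1.5-fold lower and 14.3% and 19.0% over 1.5-fold higher, and the median gene was at -0.13 and -0.09. The members' share is well above that background, but it is a difference in concentration. Counted per cell, the log2 ratio of Nr4a1 was -0.13 (-0.58 to 0.31) and 0.36 (-0.08 to 0.80), and that of Egr1 was -0.27 (-0.69 to 0.13) and 0.0033 (-0.47 to 0.47). All 4 of these intervals take in no difference, so the lower level of Nr4a1 and Egr1 in cycling cells was one per UMI of RNA and was not seen per cell. Per cell, Nr4a3 in the WT-host library was still lower in cycling cells, at -1.43 (-2.71 to -0.36).

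**Figure D3:**
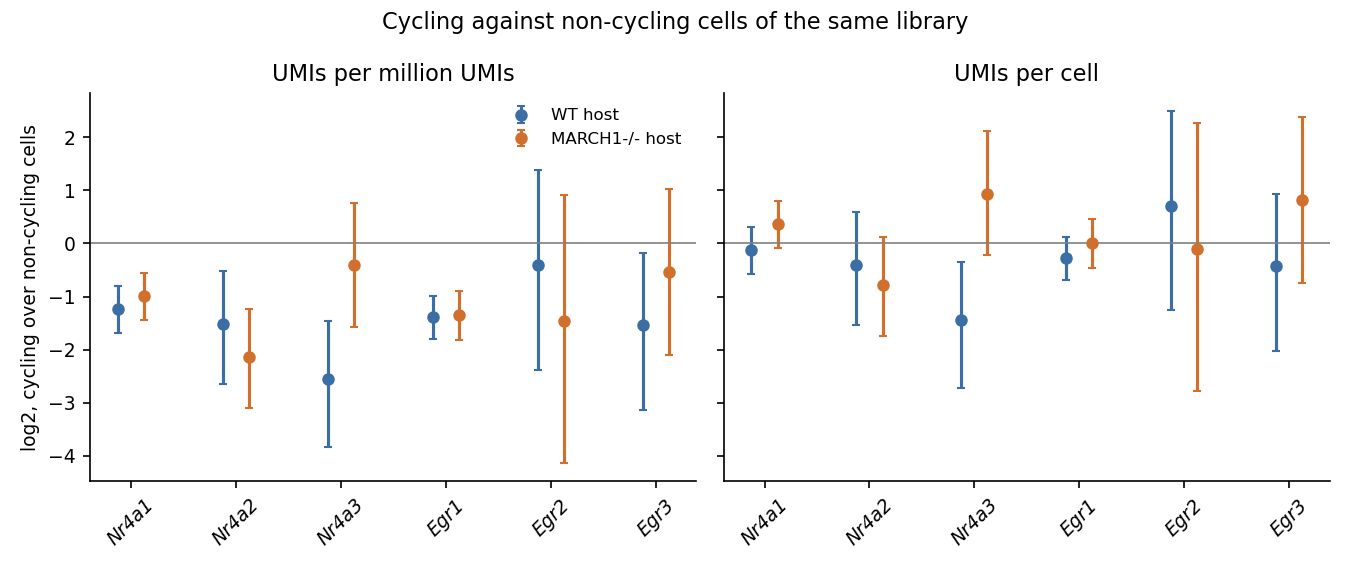
Log2 ratio of each member in cycling over non-cycling cells of the same library, scaled to CPM (left) and per cell (right), with exact 95% counting intervals; blue is the WT host, orange the MARCH1-/- host. Nr4a1 and Egr1 sit near -1 or below on the left and between -0.27 and 0.36 on the right.

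With cycling and non-cycling cells kept apart, the host comparison was as follows. In cycling cells Nr4a1 was at 50.5 and 82.7 CPM in the WT and MARCH1-/- hosts (log2 ratio 0.71, 0.21 to 1.22) and Nr4a3 at 6.85 and 16.3 (1.26, -0.05 to 2.69). Nr4a2 had a log2 ratio of 0.70 (-0.52 to 1.97) and Egr1 of 0.21 (-0.30 to 0.73), while Egr2 (5 and 3 UMIs) and Egr3 (6 and 9 UMIs) were too few to compare. The 3 receptors were over 1.5-fold higher in the MARCH1-/- host and 0 members lower, out of 4 members with 20 UMIs, beside 29.0% and 10.3% of all genes and a median gene at 0.26.

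In non-cycling cells Nr4a2 stood out, at 27.1 and 67.0 CPM, a log2 ratio of 1.31 (0.63 to 1.99). Nr4a1 was at 119 and 164 (0.46, 0.09 to 0.83) and Egr1 at 149.7 and 169 (0.18, -0.18 to 0.53). Nr4a3 went the other way, with 39.9 and 21.8 CPM (-0.87, -1.87 to 0.01). Egr3 had a log2 ratio of -0.16 (-1.54 to 1.07). Of 5 members with 20 UMIs, 1 was over 1.5-fold higher and 1 over 1.5-fold lower, beside 27.6% and 11.8% of all genes and a median gene at 0.23. Nr4a2 and Nr4a3 were thus past 1.5-fold in opposite directions in the non-cycling cells of the MARCH1-/- host.

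Non-cycling cells were then grouped by the helper transcripts they held, with at least 1 UMI: the type 2 cytokines Il4, Il5 or Il13; Foxp3; the type 17 genes Il17a, Il17f or Il23r; and the type 1 genes Ifng or Tbx21. The sets held 91, 31, 36 and 41 WT-host cells and 29, 17, 6 and 9 MARCH1-/- host cells, a cell can be in several, and 83 and 39 cells had none of these transcripts. A UMI of a marker gene can be missed in a shallow cell, so the cells with none are not a cell type.

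Egr1 and Nr4a1 had different patterns over these sets. In the type 17 set of the WT-host library Egr1 was at 36.2 CPM (15.6 to 71.2) and in the Foxp3 set at 294 (217 to 390), intervals that do not meet. The type 2 set was at 146 (118 to 179), the type 1 set at 88.4 (55.4 to 134) and the cells without a marker at 159.9 (121 to 207). Against the other non-cycling cells of the library, the log2 ratio was -2.24 (-3.47 to -1.24) for the type 17 set and 1.17 (0.68 to 1.64) for the Foxp3 set. Without its top cell of 15 UMIs the Foxp3 set was at 0.69 (0.10 to 1.24).

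The MARCH1-/- host library had Egr1 at 111 CPM (30.3 to 284) in the type 17 set and 246 (156 to 369) in the Foxp3 set. Both points lie on the same side of the other non-cycling cells as in the WT host, at log2 ratios of -0.64 (-2.54 to 0.76) and 0.66 (-0.07 to 1.35), with intervals that take in no difference. Without its top cell the type 17 set held 1 UMI, and the Foxp3 set was at 171 CPM, a log2 ratio of 0.14; that Foxp3 cell, with 9 of the 23 UMIs, was called a doublet by Scrublet. The type 2 set was at 223 (167 to 292), the type 1 set at 322 (184 to 523) and the cells without a marker at 42.2 (19.3 to 80.1). The type 1 value came from 4 cells, and without the top one, which held 10 UMIs, it was 131.

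Cells with 3 or more Egr1 UMIs were 8 of 31 cells (25.8%, 11.9% to 44.6%) of the Foxp3 set and 0 of 36 (0% to 9.74%) of the type 17 set in the WT-host library. In the MARCH1-/- host library they were 5 of 17 (29.4%, 10.3% to 56.0%) and 1 of 6 (16.7%, 0.421% to 64.1%). The type 2 set had 10 of 91 (11.0%) and 6 of 29 (20.7%), and cycling cells 9 of 98 (9.18%) and 3 of 61 (4.92%). The type 1 set was at 4.88% (0.596% to 16.5%) and 22.2% (2.81% to 60.0%). The Egr1-high cells were thus found in several helper kinds, with the highest point share in the Foxp3 set of each library. The Foxp3 interval overlaps those of the type 2 set (5.40% to 19.3% and 7.99% to 39.7%) and the type 1 set, so no order is read. Among helper sets, only type 17 in the WT host had an interval that does not meet that of Foxp3. In the MARCH1-/- host, 1 of the 5 Foxp3 cells was called a doublet by Scrublet.

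Nr4a1 did not show the low in type 17 cells. It was at 203 CPM (148 to 272) in the type 17 set of the WT-host library, with log2 0.98 (0.45 to 1.48) against the other non-cycling cells, and at 361 (192 to 617) in that of the MARCH1-/- host, with 1.25 (0.28 to 2.10). The top cell held 8 of the 13 UMIs in the latter, and without it the ratio was 0.22, with an interval that takes in no difference. In the Foxp3 set Nr4a1 was at 135 (84.6 to 204) and 289 (190 to 420), in the type 2 set at 114 (89.4 to 144) and 135 (92.1 to 190), and in the type 1 set at 92.4 and 60.3, from 23 and 3 UMIs. Without its top cell the Foxp3 set was at 89.5 in the WT host, where the log2 ratio against the other non-cycling cells went from 0.21 to -0.39, and at 171 in the MARCH1-/- host. The type 2 set of the MARCH1-/- host had 17 of its 32 Nr4a1 UMIs in 1 cell and was at 66.1 without it.

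The number of Egr1 UMIs for each Nr4a1 UMI sets the pair side by side within the same cells, free of the total. In the type 17 set it was 0.178 (0.0724 to 0.381) in the WT host, from 8 and 45 UMIs, and 0.308 (0.0731 to 0.996) in the MARCH1-/- host, from 4 and 13. The cell with the most Nr4a1 in the latter held 8 of those 13 UMIs and 0 of Egr1, and without it the ratio was 0.8 (0.159 to 3.72), an interval that takes in 1. Without the top Nr4a1 cell of the WT-host set the ratio was 0.205 (0.0828 to 0.445), so the low in type 17 cells is measured in the WT-host library alone. Over all cells it was 1.23 (1.02 to 1.47) and 0.927 (0.746 to 1.15). The type 2 set stood at 1.28 and 1.66 and the Foxp3 set at 2.18 and 0.852. Cells without a marker were at 1.63 (1.05 to 2.56) in the WT host and at 0.346 (0.143 to 0.762) in the MARCH1-/- host.

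**Figure D4:**
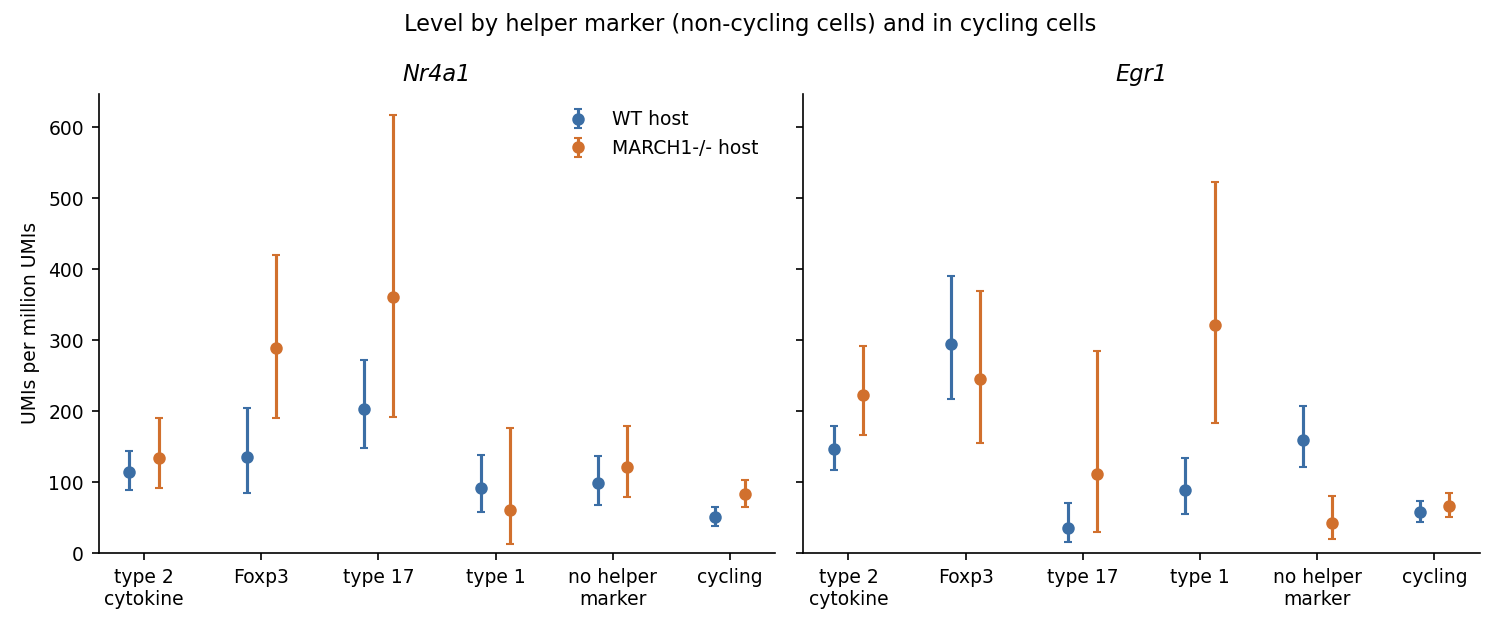
Level of Nr4a1 (left) and Egr1 (right), in CPM, in non-cycling cells with each helper marker, in those with none, and in cycling cells; bars are exact 95% counting intervals, blue the WT host and orange the MARCH1-/- host. In the type 17 set Nr4a1 is at 203 and 361 while Egr1 is at 36.2 and 111, and in the Foxp3 set Egr1 is at 294 and 246.

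Host differences within the sets rested on few cells. Egr1 in cells without a helper marker was at 57 UMIs in 21 of 83 cells and at 9 UMIs in 7 of 39 cells, a log2 ratio of -1.92 (-3.12 to -0.90). In the type 2 set its ratio was 0.61 (0.10 to 1.11), the opposite sign. The top MARCH1-/- host cell of that set held 13 of its 53 Egr1 UMIs, and another cell held as many. Without the top cell of each library's set, Egr1 went from 146 to 128 CPM in the WT host and from 223 to 176 in the MARCH1-/- host. Nr4a3 in the type 2 set had 25 UMIs in 17 of 91 WT-host cells and 2 UMIs in 2 of 29 MARCH1-/- host cells, a log2 ratio of -2.24 (-5.36 to -0.23). Nr4a2 in the Foxp3 set had 2 UMIs in 2 of 31 cells and 12 UMIs in 5 of 17 cells, or 12.3 (1.49 to 44.3) and 128 (66.3 to 224) CPM; without the top cell the latter was 78.1. Egr3 in the WT-host library had 17 of its 21 non-cycling UMIs in the type 2 set, at 27.0 CPM against 5.18 in the other non-cycling cells, and 2 of 8 in the MARCH1-/- host library.

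Co-occurrence was read in cells thinned to 2000 UMIs, where depth is equal. Nr4a3 was found in 11 of 66 WT-host cells with Nr4a1 (16.7%) and in 10 of 265 without it (3.77%), and in 2 of 24 (8.33%) and 4 of 130 (3.08%) MARCH1-/- host cells. Nr4a3 was found in 4 of 13 WT-host cells with Nr4a2 (30.8%) and 17 of 318 without (5.35%), and in 3 of 11 (27.3%) and 3 of 143 (2.10%) in the MARCH1-/- host. Nr4a3 was thus found in a higher share of the cells that held a relative, in both libraries, though from 2 to 11 such cells each. Across the families the contrast was smaller: any Egr was found in 24.4% of WT-host cells with any Nr4a and 16.9% of those without, and in 17.6% and 11.7% of MARCH1-/- host cells.

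The point share of cells with Egr1 was larger with Cd69, Fos, Junb or Nfkbia than without in both libraries, but not so with every early gene. Egr1 was found in 30 of 122 WT-host cells with Cd69, an early activation antigen (24.6%), and 22 of 209 without (10.5%). In the MARCH1-/- host it was found in 12 of 81 (14.8%) and 5 of 73 (6.85%). With Fos, an AP-1 subunit that the same ERK pathway induces, the shares were 19.5% and 13.8%, and 16.7% and 5.26%. For Junb they were 18.1% and 11.3%, and 12.9% and 0%. For the NF-kappa-B inhibitor Nfkbia they were 18.9% and 12.2%, and 11.5% and 9.38%. With Jun they were 13.5% and 16.1% in the WT host and 12.5% and 10.8% in the MARCH1-/- host, and with the phosphatase Dusp1 21.7% and 14.1%, and 10.0% and 12.2%. Only the WT-host shares for Cd69 had intervals that do not meet (17.2% to 33.2% and 6.72% to 15.5%). All the other pairs overlap, so no difference between these early genes is read.

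Any Nr4a was found in 39.1% of WT-host cells with Dusp1 and 21.0% without, and in 29.2% with Junb, an AP-1 subunit, and 16.5% without. The MARCH1-/- host shares were 26.2% and 17.6% for Dusp1 and 24.2% and 9.09% for Junb. With the inhibitory receptor Lag3 the share was lower in the WT host, at 14.5% against 26.8%, and in the MARCH1-/- host it was 5 of 25 cells against 29 of 129. For the inhibitory receptor Pdcd1 and the exhaustion factor Tox the shares lay closer: any Nr4a was found in 27.0% of WT-host cells with Pdcd1 and 23.8% without, and in 23.9% with Tox and 25.2% without. The MARCH1-/- host shares were 25.6% and 20.9% for Pdcd1 and 19.4% and 22.8% for Tox. Of these any-Nr4a pairs, only Dusp1 in the WT host had intervals that do not meet (27.6% to 51.6% and 16.2% to 26.4%).

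Cells with 3 or more Egr1 UMIs were also set against cells with none. Fos was at 875 against 231 CPM in the WT host and at 1534 against 434 in the MARCH1-/- host, Cd69 at 488 against 258 and at 605 against 366. Nr4a1 was at 170 (127 to 224) against 73.6 (61.2 to 87.8) and at 306 (226 to 404) against 81.6 (66.0 to 99.9). Nr4a3 was at 29.5 against 26.1 and at 18.7 against 17.4, and Jun, which pairs with Fos, at 98.3 against 82.5 and at 49.9 against 107. Egr1-high cells were thus high in Nr4a1, Fos and Cd69 in both libraries, while Nr4a3 was level.

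The genes with the pattern most like each member over single cells were ranked by the lower of the Pearson correlations in the 2 libraries (352 and 156 cells; log of counts per 10000), among 6701 genes. All these values are weak, the points share a library and differ in depth, and they are a description. Egr1 was most like Fosb (0.33 and 0.29), Fos (0.33 and 0.25) and Zfp36 (0.22 and 0.23), which encodes a protein that destabilizes messages. Nr4a1 was most like Junb (0.32 and 0.34), Tnfaip3 (0.31 and 0.29), an inhibitor of NF-kappa-B, and the ERK phosphatase Dusp5 (0.26 and 0.28). Nr4a3 was most like the chemokine receptor Ccr6 (0.23 and 0.24), the histone demethylase Kdm6b (0.22 and 0.27) and Nr4a2 (0.21 and 0.24), which in turn also had Zmynd11 and Tmcc1. Egr3 was most like Cd40lg, the helper ligand for B cells (0.24 and 0.22), and the NF-kappa-B subunit Rel (0.21 and 0.34). Egr2, with UMIs in 9 and 4 cells, had Trps1, Ap4s1 and Rel.

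Genes past 1.5-fold were about as frequent in the wider signal pathway as among all genes. Of 76 further genes of the antigen receptor pathway, 72 had at least 20 UMIs over all cells, 19 were over 1.5-fold higher in the MARCH1-/- host library and 6 lower (26.4% and 8.33%, beside 27.2% and 10.1% of all genes), with a median log2 ratio of 0.18 against 0.25 for all genes. Measured relative to the median gene the counts were 12 and 12. The pathway as a whole was therefore at the background, in the same way as the members.

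Among 17 early response factors with 20 UMIs, induced together with the members, 8 were over 1.5-fold higher and 1 lower. These shares were 47.1% and 5.88%, beside 27.2% and 10.1% of all genes. The AP-1 gene Fosb was at 116 and 301 CPM (log2 ratio 1.37, 1.16 to 1.58), Junb at 733 and 1394 (0.93, 0.84 to 1.02) and Fos at 373 and 588 (0.66, 0.53 to 0.79). Zfp36 (1.27), Ier5 (1.12), Ier2 (1.09), Klf6 (0.78) and Jund (0.67) were the others, and Myc, a growth regulator, was lower (-0.88, -1.96 to 0.10) from 36 and 12 UMIs. Egr1, which shares cells with Fos and Fosb, did not share their host difference: its interval (-0.32 to 0.25) lies below theirs.

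Single feedback genes of the pathway held the largest ratios, but as a list the feedback genes were near the background of all genes. The MAP kinase phosphatases Dusp1, at 124 and 371 CPM (1.59, 1.39 to 1.79), and Dusp2, at 46.7 and 144 (1.63, 1.30 to 1.96), were over 1.5-fold higher, as were the diacylglycerol kinase Dgka (0.67) and Nab2 (0.71, -0.02 to 1.44), a corepressor that binds Egr proteins. Spred1 was over 1.5-fold lower (-0.69, -2.07 to 0.55), and Spry2 was at 0 in both libraries. Thus 4 of 14 brakes with 20 UMIs were higher and 1 lower (28.6% and 7.14%), beside 27.2% and 10.1% of all genes. Of 11 genes of the calcium, NFAT and NF-kappa-B arm, 1 was higher, the NF-kappa-B inhibitor Nfkbia (1.26, 1.16 to 1.36), and 0 lower. Of 11 proximal genes, Cd3g (0.65), Lat (0.87) and the costimulatory receptor Cd28 (0.95) were higher and 0 lower. Of 19 outputs, Cd5 (0.78), Cd40lg (1.21) and Il2 (0.95, from 11 and 13 UMIs) were higher, and Tox (-1.27), Il2ra (-0.94), Tnf (-0.82) and Tnfrsf9 (-0.81) lower. The shares higher and lower were 9.09% and 0% for the calcium, NFAT and NF-kappa-B arm and 27.3% and 0% for the proximal genes. They were 15.8% and 21.1% for the outputs, beside the same 27.2% and 10.1% of all genes.

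Handling can also induce early genes. A list of 9 dissociation and heat shock genes summed to 2829.6 and 3461 CPM. Of 8 with 20 UMIs, Hspa8 (0.66) was over 1.5-fold higher and Hspa1b lower. These shares were 12.5% and 12.5%, beside 27.2% and 10.1% of all genes. In cycling cells 2 of the list were higher and 0 lower out of 7, beside 29.0% and 10.3% of all genes. In non-cycling cells 0 of the list were higher and 3 lower out of 7, beside 27.6% and 11.8% of all genes. Its part in the host differences was not tested.

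**Figure D5:**
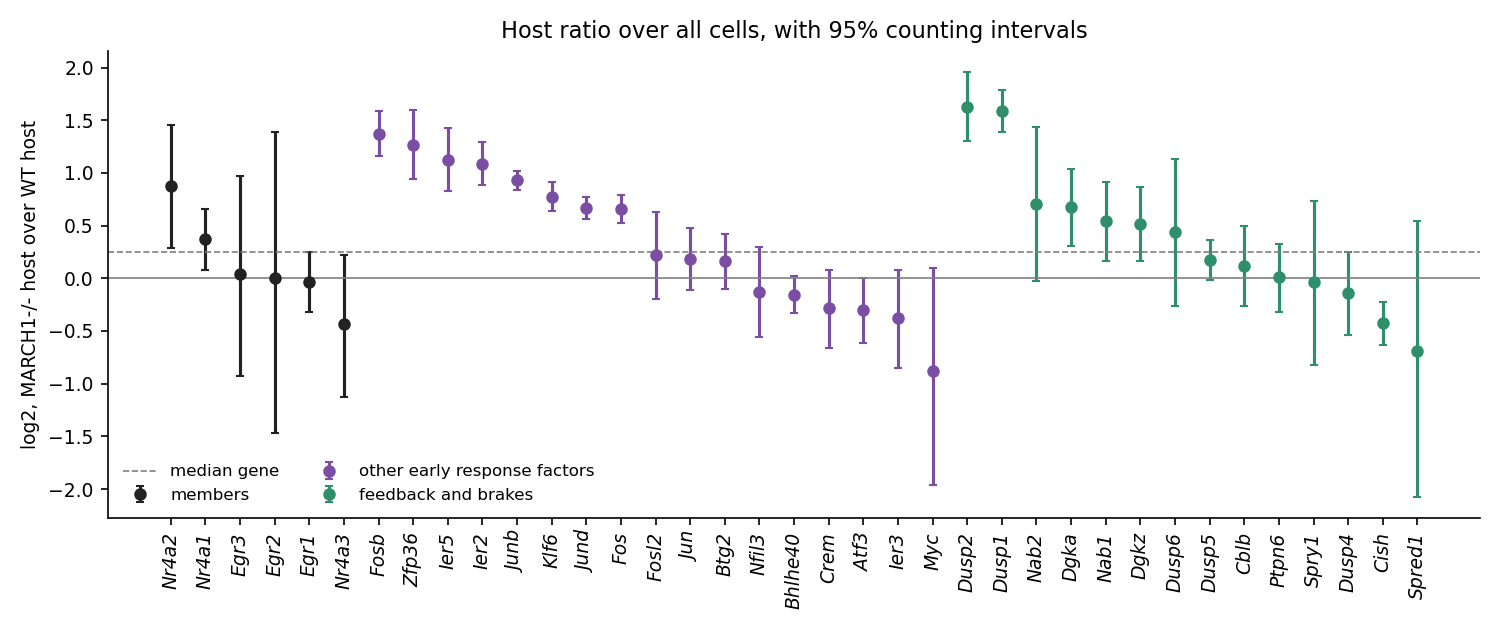
Log2 ratio of the level in the MARCH1-/- host to that in the WT host, all cells, with exact 95% counting intervals, for the 6 members (black), the other early response factors (purple) and the feedback genes (green) with at least 20 UMIs or, for members, any; the dashed line is the median gene at 0.25. Nr4a1, Egr1, Egr2, Egr3 and Nr4a3 lie within 1.5-fold of no change, while Fosb, Zfp36, Dusp1 and Dusp2 lie at 1.27 or above.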

How the data were processed

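The labels' protocols give a 10x Chromium 3′ kit (v3.1). The authors deposited whole-number UMI counts per gene and barcode, without normalization, for all barcodes. Cell Ranger 3.1.0 and build mm10 are named per the submitters' processing notes, and version 4 per the file headers; no source used here gives the gene annotation.

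From the deposited counts, cells were kept by the limits given above (352 and 156 of 223154 and 158635 barcodes). UMIs were summed per library and set of cells and scaled to 1000000. The 95% intervals are exact: Poisson for a sum, binomial conditional on both counts for a ratio, and Clopper-Pearson for a share. Ratios are log2, and a gene counted as past 1.5-fold only with at least 20 UMIs. Thinning used 1 draw with seed 1, and expected shares the hypergeometric formula. Scrublet ran in scanpy 1.11.5 (expected rate 0.05), and doublets were left out only as an alternative. Counting steps were tested on simulated data. Promoter searches used the 250 bases before a start, not the 50 after it. The scripts ran in Python 3.11.15 with scipy 1.17.1, numpy 2.4.6, matplotlib 3.10.9 and pandas 2.3.3.

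The members, lists, sets and motifs were chosen with earlier results of these data known. Some genes of the lists and marker sets are not reported here, and the sets and sums were computed without them. Named were all members, list genes past 1.5-fold or with the most UMIs, and up to 3 most similar genes per member with both correlations at 0.2 or above. Alternatives were doublets left out, other totals, equal weight per cell, the top cell left out, stricter or no limits on cells, other cycling cuts, other depths, other helper cuts and other folds; counting per cell and leaving out the top cell of a helper set were added after the data were seen.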

Additional observations from a re-analysis of the deposited data

Results flagged for a closer look

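For 3 members the host ratio had opposite signs in non-cycling and cycling cells, and the difference between those cells was not tested. The log2 ratio of Nr4a3 was -0.87 in non-cycling cells (56 and 13 UMIs) and 1.26 in cycling cells (8 and 16 UMIs). That of Egr3 was -0.16 (21 and 8 UMIs) and 0.84 (6 and 9 UMIs), and that of Egr2 was 0.56 (8 and 5 UMIs) and -0.48 (5 and 3 UMIs). In cycling MARCH1-/- host cells, 8 of the 9 Egr3 UMIs came from 1 cell, and the 16 Nr4a3 UMIs came from 6 cells, the top one with 5.

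Barcodes left out for more than 10% mitochondrial UMIs, 72 in the WT-host library and 25 in the MARCH1-/- host library, also held the members, above the level that 3 counts would give. In the 77459 UMIs of the WT-host set Nr4a1 was at 103 CPM, Nr4a2 at 64.6, Nr4a3 at 116 and Egr1 at 64.6. In the 29830 UMIs of the MARCH1-/- host set Nr4a1 was at 168, Nr4a2 at 235 and Nr4a3 at 134. Against the kept cells of the same library, Nr4a3 was higher by 2.22 (1.03 to 3.24) and 2.87 (0.90 to 4.38) on the log2 scale, from 9 and 4 UMIs, and Nr4a2 by 1.76 (0.07 to 3.08) and 2.75 (1.37 to 3.89), from 5 and 7 UMIs. Egr1 was at -0.74 (-2.37 to 0.50) and -0.65 (-3.71 to 1.22), Nr4a1 at 0.23 and 0.56, Egr2 at 1.35 and 2.72 and Egr3 at 1.30 and 2.64, all with intervals that take in 0. Differences between members were not tested. Whether they are damaged cells was not tested.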

How the results depend on the processing

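Of 389 values recomputed under an alternative, 315 stayed inside the counting interval of the main value and 71 moved outside it. For pathway counts the limit was 1.5-fold of the main count. The other 3 changed sign where the main interval excluded 0. Sign changes of values whose main interval took in 0 were not counted apart, and the causes were not tested. Counted per cell, the host ratio of Nr4a1 was 0.84 and that of Egr1 0.435. Cycling over non-cycling ratios per cell were -0.13 and 0.36 for Nr4a1 (WT and MARCH1-/- host), -0.41 and -0.78 for Nr4a2, -1.43 and 0.94 for Nr4a3, and -0.27 and 0.0033 for Egr1. The 2 MARCH1-/- host cycling ratios of Nr4a1 and Egr1 changed sign. So did the MARCH1-/- host cycling ratio of Nr4a3 (from -0.42) and the host ratio of Egr1 (from -0.03), whose main intervals took in 0. Thinned to 2000 UMIs, the host ratios were -0.037 for Nr4a1, a change of sign, -0.33 for Egr1 and -1.36 for Egr3. Without the top cell, Egr1 went to -0.32 over all cells, -0.99 in cycling cells and -2.50 for the cycling ratio of the MARCH1-/- host, and Egr3 to -1.75 in cycling cells and -3.04 for that ratio. With cells weighted alike, Egr1 in cycling cells was -0.45. With cycling called from 5 markers, the Egr3 host ratio was -2.22 and its MARCH1-/- host cycling ratio -4.35.

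Shares of cells followed depth. At 1000 UMIs they were 11.1% for Nr4a1, 2.93% for Nr4a3 and 9.09% for Egr1 in the WT host and 2.56% for Nr4a2 in the MARCH1-/- host. Unthinned they were 35.2% for Nr4a1, 10.2% for Nr4a2, 13.1% for Nr4a3, 31.0% for Egr1 and 5.11% for Egr3 in the WT host, and 42.3%, 15.4%, 10.9% and 27.6% for the first 4 in the MARCH1-/- host. With at least 2 UMIs of a helper set, WT-host levels in CPM were 215 for Nr4a1, 0 for Nr4a2 and 430.3 for Egr1 in the Foxp3 set, 156 for Egr1 in the type 1 set and 0 for Egr2 in the type 17 set. In the MARCH1-/- host they were 0 for Nr4a1, 748 for Egr1, 0 for Egr2 and 0 for Egr3 in the type 1 set, and 0 for Nr4a3 and Egr2 in the Foxp3 set. Without the top cell of a helper set, chosen after seeing the data, Egr1 was at 211 CPM in the WT-host Foxp3 set and 131 in the MARCH1-/- host type 1 set. In the MARCH1-/- host Nr4a1 was at 66.1, 171 and 176 in the type 2, Foxp3 and type 17 sets and Nr4a2 at 4.41 in the type 2 set, and 11 other levels, of members with UMIs in 1 cell of their set, went to 0. Pathway genes past 2-fold were 8 higher and 1 lower over all cells, 10 and 2 in cycling and 11 and 1 in non-cycling cells; relative to the median gene they were 12 and 12, 13 and 13, and, in non-cycling cells, 11 lower. With 1 library per host, neither animals nor preparation can be told apart from the host, and depth limits Egr2 and Egr3 most. No paired analysis was possible because the result comes from no test and each group has 1 library.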
